A study of Rattus norvegicus with 20 samples.

Results

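The glutathione transferases of rat liver were followed with 24 probe sets standing for 23 genes, out of 31042 probe sets tested. They were chosen as every probe set whose only gene symbol in the array's annotation begins with Gsta, Gstm, Gstp, Gstt, Gstk, Gsto, Gstz or Mgst. The rule uses no measured value, but the family was chosen with earlier results of these data known. RefSeq's GRCr8 gene table lists 31 protein-coding genes with such symbols, and 8 of them (Gsta2, Gsta4l1, Gsta5, Gsta6, Gstm3l1, Gstm6, Gstt4 and Mgst3l1) had no probe set of their own. On the log2 scale of the deposited values, 18 of the 24 members had a mean of at least 6 over all arrays, and the other 6 (Gsta3l1, Gstm3, Gstm5, Gstm6l, Gsto2 and the second Gstt2 probe set) were dimmer. A log2 difference of 1 is a doubling, and a brighter probe set is not by itself a more abundant transcript, so levels are compared only within a probe set.

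Glutathione transferases join the tripeptide glutathione to electrophilic foreign compounds and to reactive products of lipid oxidation, which makes them more water soluble and less reactive. The soluble classes alpha (Gsta), mu (Gstm), pi (Gstp), theta (Gstt), omega (Gsto) and zeta (Gstz) work in the cytosol, the kappa enzyme in mitochondria and peroxisomes, and the Mgst proteins sit in membranes. Liver is rich in alpha and mu enzymes, and several of their genes are known targets of the xenobiotic receptors CAR, PXR and AHR and of NRF2, the factor that answers to electrophiles.

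The livers came from a study of PBDE-47, a congener of the polybrominated diphenyl ether flame retardants. Timed-mated Wistar Han dams, 11 to 12 weeks old on arrival at gestation day 2, were gavaged daily with 5 mL/kg corn oil from gestation day 6 to postnatal day 4. The oil held 0, 0.02, 3 or 10 mg/mL PBDE-47, which gave vehicle, 0.1, 15 and 50 mg/kg per day. RNA from the left lateral lobe at postnatal day 4 was hybridised to 1 array per sample, 5 arrays per group and 20 in all. The labels do not say whether the liver was the dam's or a pup's, or whether the 5 arrays of a group were separate animals or litters, so the p-values measure only the spread between these samples.

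Array medians lay between 5.60 and 5.65, and 0 pairs of arrays held identical values. The mean of 8 measured hepatocyte markers (of 9 listed) lay between 13.74 and 13.87 on every array, and that of 4 fetal liver genes, Afp among them, between 12.55 and 12.99. The hepatocyte mean is near the top of the scale, whose highest value was 14.82, so it is a weak measure of hepatocyte content. Every sample is labelled female, but all 4 Xist probe sets read between 2.49 and 3.62 on all 20 arrays, while the Y-linked Eif2s3y read between 8.79 and 9.48 and 1 of 2 Uty probe sets (1383720_at) between 8.65 and 9.20. These levels go against the label on every array alike. They are also not those of a dam's liver, since a dam has no Y chromosome. Skeletal muscle transcripts (9 of 10 listed measured, mean 4.00 to 9.23) stood more than 2 log2 units above the lowest array on 1 vehicle, 3 low-dose, 1 middle-dose and 3 high-dose arrays, and exocrine pancreas transcripts (10 of 10, mean 4.70 to 7.67) on 0, 1, 2 and 0. For 6 measured erythroid markers (of 8) the mean ran from 8.24 to 10.92, with 1, 2, 2 and 1 arrays that far above the lowest. The mean of 7 measured Kupffer cell markers (of 9) was 9.86 to 10.01 with vehicle and 9.53 to 10.04 at 0.1 mg/kg. It was 9.61 to 9.92 at 15 and 9.21 to 9.59 at 50 mg/kg, where 4 of the 7 were lower. Over all probe sets 0.348% were lower there, by an adjusted p under 0.05. The difference between 3' and 5' actin probe sets averaged 1.88 with vehicle and 2.11 at 50 mg/kg. The part of these differences in the results that follow was not tested beyond the fits named with each. In bulk liver, fewer cells of a type and less RNA per cell cannot be told apart.

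At 50 mg/kg, 6 members were higher than with vehicle and 0 were lower. They were Gsta3 of the alpha class, Gstm1 of the mu class, the theta genes Gstt1, Gstt2 and Gstt3, and the membrane enzyme Mgst2, with rises of 1.26-fold to 1.76-fold. The call was an adjusted p under 0.05 over all probe sets. By that rule 25% of the members were higher, against a percent called of 0.586% of all probe sets, and among probe sets with a mean of at least 6 the shares were 33.3% of 18 members and 1.18% of 13980. The estimate was above 0 for 21 of 24 members and for 53.0% of all probe sets. The median difference was 0.24 for the members and 0.01 for all probe sets. The 5 arrays at 50 mg/kg lay above all 5 vehicle arrays for 7 members (the 6 called and Gsta1), a pattern that 1.78% of all probe sets showed. Over all probe sets 290 were called in either direction with all arrays. Without vehicle replicates 2, 3 or 4, or 50 mg/kg replicates 4 or 5, that number was 180, 177, 137, 106 and 152. In those fits the count of members was 3, 3, 2, 2 and 2. It was 2 with only those groups in the fit, 3 with the actin difference as a covariate, and 0 without any array high in muscle or pancreas markers, which left 2 arrays at 50 mg/kg and 4 with vehicle. In that last fit calls fell over all probe sets too. Its estimates were 0.85 for Gsta3, 0.81 for Gstm1, 0.57 for Gstt2, 0.51 for Gstt3, 0.40 for Gstt1 and 0.34 for Mgst2.

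**Figure D1:**
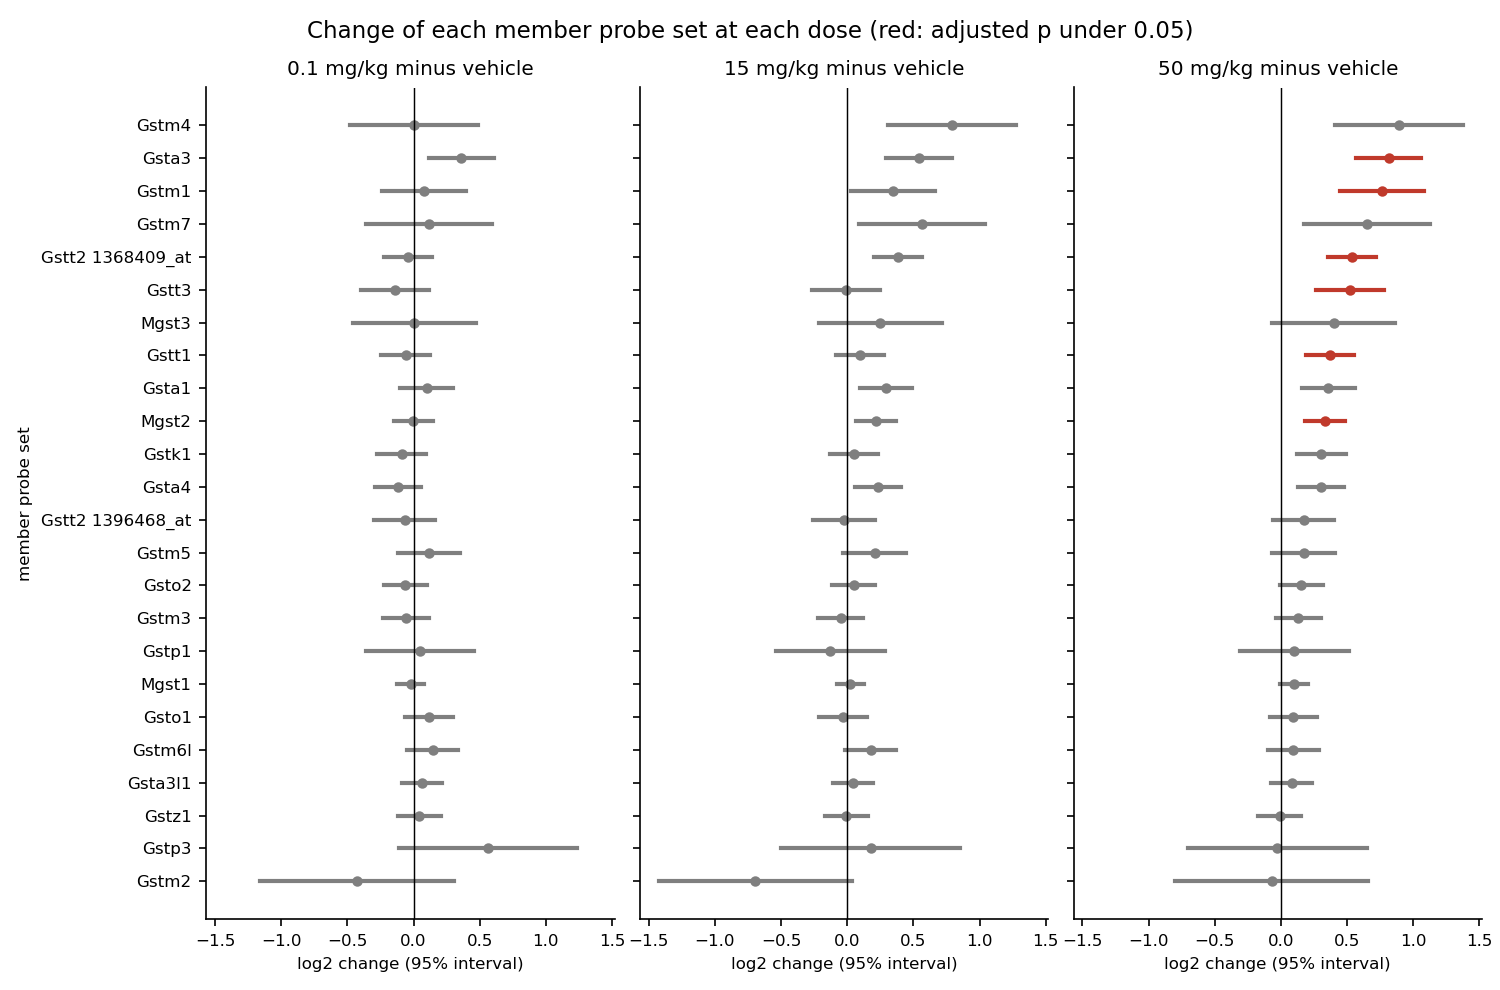
Differences from vehicle on the log2 scale (x axis) for the 24 members (y axis, ordered by the difference at 50 mg/kg) in panels for 0.1, 15 and 50 mg/kg, as points with 95% intervals from the fit, in red where the adjusted p is under 0.05. The red points are the 6 members called at 50 mg/kg, from 0.33 for Mgst2 to 0.81 for Gsta3.

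The alpha class includes abundant liver transferases. Gsta3 (probe set 1371089_at), which RefSeq also calls Yc2, encodes an alpha subunit known for conjugating aflatoxin epoxide. Its log2 levels on the vehicle arrays were 10.85, 11.42, 10.89, 10.83 and 11.31. They were 11.52, 11.62, 11.36, 11.41 and 11.19 at 0.1 mg/kg, 11.70, 11.61, 11.30, 11.72 and 11.67 at 15 mg/kg, and 11.89, 11.64, 11.90, 11.94 and 12.00 at 50 mg/kg. All 50 mg/kg arrays lay above all vehicle and all 0.1 mg/kg arrays, and the middle dose overlapped with its neighbours. Gsta3 rose by 0.81 at 50 mg/kg, or 1.76-fold (SE 0.12, 95% interval 0.57 to 1.06, adjusted p = 0.00135). The difference was 0.54 at 15 mg/kg (interval 0.29 to 0.79, adjusted p = 0.0933) and 0.36 at 0.1 mg/kg (interval 0.11 to 0.61, adjusted p = 0.556), neither of which passed. The call at 50 mg/kg held in each of the 20 fits that left out 1 array.

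Gsta1 (1367774_at), also named Yc1, is another alpha subunit with a probe set of its own. Its levels were 12.48, 12.54, 12.27, 12.01 and 12.46 with vehicle, 12.55, 12.67, 12.37, 12.41 and 12.26 at 0.1, 12.66, 12.61, 12.49, 12.81 and 12.67 at 15, and 12.67, 12.59, 12.74, 12.79 and 12.77 at 50 mg/kg. The lowest 50 mg/kg array, at 12.59, lay above the highest vehicle array, at 12.54. The difference at 50 mg/kg was 0.36 (interval 0.16 to 0.56, adjusted p = 0.0813) and did not pass, except after another quantile normalization, with array weights, or when probe sets with a mean under 6 were left out. Gsta1 passed for a slope over the dose order (vehicle, 0.1, 15 and 50 mg/kg taken as equal steps), at 0.13 per step (adjusted p = 0.0351).

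Gsta4 (1372297_at) encodes the alpha enzyme that conjugates 4-hydroxynonenal, an aldehyde formed when membrane lipids oxidise. Its levels were 10.86, 10.99, 10.91, 10.95 and 11.36 with vehicle, 10.95, 10.78, 11.05, 10.91 and 10.80 at 0.1, 11.29, 11.28, 11.05, 11.30 and 11.29 at 15, and 11.35, 11.32, 11.31, 11.22 and 11.38 at 50 mg/kg. Vehicle replicate 5 stood with the 50 mg/kg arrays, and the other 4 vehicle arrays stood below all of them. The difference at 50 mg/kg was 0.30 (adjusted p = 0.0995), and 0.39 (adjusted p = 0.00843) without that array. Over the 20 fits that left out 1 array, its adjusted p ran from 0.00843 to 0.201. Gsta4 passed for the slope, at 0.13 per step (adjusted p = 0.0190). The remaining alpha member, Gsta3l1, averaged 2.71 with vehicle and 2.79 at 50 mg/kg, near the bottom of the scale.

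In the mu class, Gstm1 (1386985_at) encodes a major liver subunit that conjugates epoxides and other hydrophobic electrophiles. Its levels were 11.03, 10.88, 10.28, 10.44 and 10.91 with vehicle, 10.95, 10.96, 10.63, 10.66 and 10.72 at 0.1, 11.30, 11.12, 10.93, 10.76 and 11.16 at 15, and 11.39, 11.05, 11.53, 11.51 and 11.89 at 50 mg/kg. The 50 mg/kg arrays lay above every vehicle array, with the nearest pair at 11.05 and 11.03. Gstm1 rose by 0.77, or 1.70-fold (SE 0.15, interval 0.45 to 1.08, adjusted p = 0.0189). The call ended without vehicle replicate 4 or 50 mg/kg replicates 4 or 5, with an adjusted p of at most 0.0594. The differences were 0.35 at 15 mg/kg (adjusted p = 0.380) and 0.08 at 0.1 mg/kg (adjusted p = 0.959).

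Gstm4 (1375909_at) had the largest point estimate of the members at 50 mg/kg. Its levels were 8.58, 7.70, 8.57, 7.75 and 7.83 with vehicle, 8.46, 8.62, 7.89, 7.77 and 7.72 at 0.1, 8.86, 9.30, 8.72, 8.23 and 9.29 at 15, and 9.07, 9.18, 8.96, 8.50 and 9.20 at 50 mg/kg. The vehicle arrays fell into a pair near 8.6 and 3 near 7.8, and the lowest 50 mg/kg array lay within their range. The difference of 0.89 at 50 mg/kg (interval 0.41 to 1.38) had an adjusted p of 0.0801 and did not pass, nor did that of 0.79 at 15 mg/kg (adjusted p = 0.207). It passed for the slope, at 0.35 per step (adjusted p = 0.0204), and its call at 50 mg/kg was gained when probe sets with a mean under 6 were left out and when muscle, pancreas and erythroid levels were covariates.

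The other mu members did not pass in any comparison. Gstm7 averaged 6.90 with vehicle, 7.02 at 0.1, 7.47 at 15 and 7.55 at 50 mg/kg, a difference of 0.65 at the high dose (adjusted p = 0.211). Gstm2 went the other way at 15 mg/kg without passing. Its levels were 6.67, 8.01, 7.01, 7.34 and 8.27 with vehicle, 6.42, 5.94, 7.91, 7.10 and 7.80 at 0.1, 6.86, 6.85, 6.31, 7.33 and 6.49 at 15, and 7.75, 7.64, 6.72, 7.44 and 7.42 at 50 mg/kg. The groups overlapped throughout, and the differences were -0.43 at 0.1, -0.70 at 15 (interval -1.43 to 0.03, adjusted p = 0.436) and -0.07 at 50 mg/kg. The dim members Gstm3, Gstm5 and Gstm6l differed by 0.13, 0.17 and 0.09 at 50 mg/kg, with adjusted p of 0.534, 0.560 and 0.729. In RefSeq's gene order 9 mu genes, from Gstm5 to Gstm4, follow each other with 0 other protein-coding genes between them, and Gstm2, Gstm1 and Gstm4 are direct neighbours.

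The theta class, whose enzymes act on small halogenated compounds and on organic hydroperoxides, had all 3 of its measured genes called at 50 mg/kg. Gstt2 (1368409_at) read 8.93, 9.40, 9.17, 9.30 and 9.28 with vehicle, 9.21, 9.32, 9.10, 9.21 and 9.00 at 0.1, 9.56, 9.73, 9.37, 9.71 and 9.62 at 15, and 9.70, 9.71, 9.70, 9.87 and 9.77 at 50 mg/kg. The 50 mg/kg arrays stood above every vehicle and every 0.1 mg/kg array, and at 15 mg/kg only replicate 3 fell within the vehicle range. Gstt2 rose by 0.54 at 50 mg/kg, or 1.45-fold (SE 0.087, interval 0.36 to 0.72, adjusted p = 0.00339), and this call held in each of the 20 fits without 1 array. At 15 mg/kg the difference of 0.38 (adjusted p = 0.100) did not pass, and at 0.1 mg/kg it was -0.05 (adjusted p = 0.959). The second Gstt2 probe set (1396468_at) averaged 5.87 with vehicle and 6.04 at 50 mg/kg, a difference of 0.17 (interval -0.06 to 0.40, adjusted p = 0.546). The 2 probe sets differ in their call, and the second is dim; the difference between them was not tested.

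Gstt3 (1371942_at) had levels of 10.06, 9.81, 9.45, 9.96 and 9.69 with vehicle, 9.78, 9.50, 9.83, 9.66 and 9.49 at 0.1, 9.70, 10.14, 9.47, 9.91 and 9.69 at 15, and 10.32, 10.18, 10.17, 10.50 and 10.41 at 50 mg/kg. Only the 50 mg/kg arrays stood apart, above every array of all 3 other groups. Gstt3 rose by 0.52, or 1.44-fold (SE 0.12, interval 0.27 to 0.78, adjusted p = 0.0456), while the difference was -0.01 at 15 mg/kg (adjusted p = 0.985) and -0.14 at 0.1 mg/kg (adjusted p = 0.870). Against 15 mg/kg the high dose differed by 0.53 (interval 0.28 to 0.79, adjusted p = 0.655), which did not pass over all probe sets. The call against vehicle ended in 16 of the 20 fits without 1 array.

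Gstt1 (1368354_at) encodes the enzyme that conjugates halogenated methanes. Its levels were 7.49, 7.59, 7.24, 7.55 and 7.65 with vehicle, 7.50, 7.49, 7.45, 7.42 and 7.37 at 0.1, 7.59, 7.70, 7.47, 7.57 and 7.69 at 15, and 7.73, 7.86, 7.70, 8.19 and 7.91 at 50 mg/kg. The high-dose arrays lay above the vehicle arrays, and the lowest of them was level with the highest 15 mg/kg array. Gstt1 rose by 0.37, or 1.29-fold (SE 0.088, interval 0.19 to 0.56, adjusted p = 0.0476). This call too ended in 16 of the 20 fits without 1 array. In the gene order of the RefSeq table, Gstt2 is followed by 1 other protein-coding gene and then by Gstt4, Gstt1 and Gstt3, so the 3 called theta genes are near neighbours.

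Among the membrane enzymes, Mgst2 (1372599_at) is a microsomal transferase that can also form leukotriene C4. It read 10.62, 10.72, 10.69, 10.65 and 10.90 with vehicle, 10.70, 10.67, 10.71, 10.75 and 10.75 at 0.1, 11.01, 10.91, 10.74, 11.03 and 10.98 at 15, and 11.12, 10.93, 10.91, 11.11 and 11.19 at 50 mg/kg. The lowest 50 mg/kg array, 10.91, lay just above the highest vehicle array, 10.90, and 3 middle-dose arrays lay above that vehicle array by more than 0.05. Mgst2 rose by 0.33, or 1.26-fold (SE 0.071, interval 0.18 to 0.48, adjusted p = 0.0280), and the differences were 0.22 at 15 mg/kg (adjusted p = 0.241) and 0.00 at 0.1 mg/kg (adjusted p = 0.999). The call ended without any 1 of vehicle replicates 1 to 4 or 50 mg/kg replicates 1, 4 and 5. Mgst1, the abundant liver microsomal form, averaged 13.70 with vehicle and 13.80 at 50 mg/kg (adjusted p = 0.411). It is near the top of the scale, where values may be compressed, which was not tested. Mgst3, a membrane enzyme with peroxidase activity, differed by 0.40 at 50 mg/kg (adjusted p = 0.473).

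**Figure D2:**
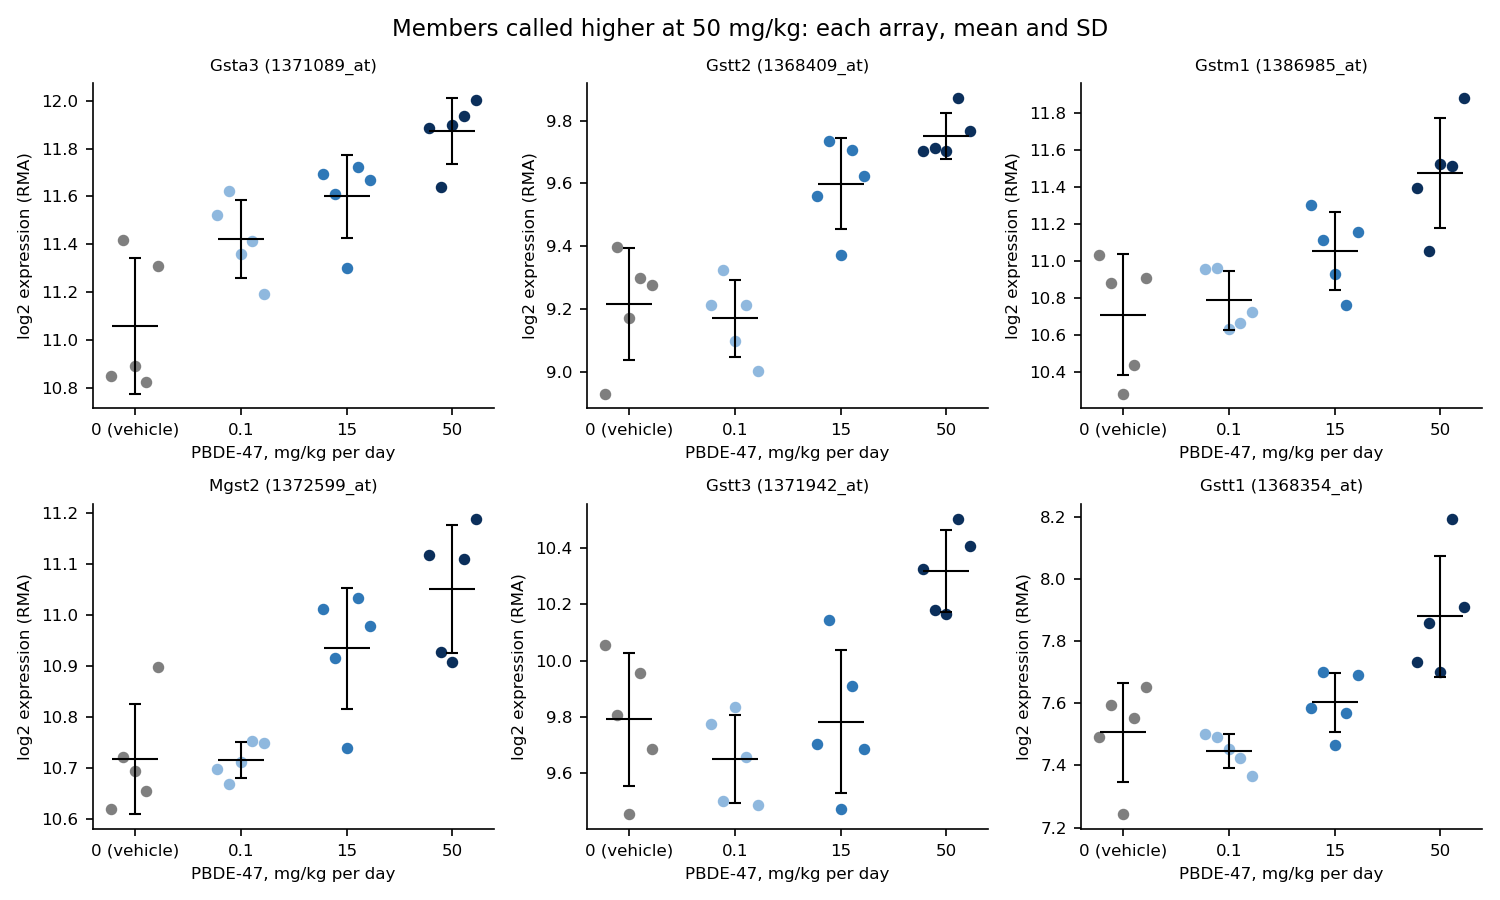
Log2 level (y axis) of the 6 members called at 50 mg/kg on each array (points) by dose group (x axis, mg/kg per day), with lines for the group mean and bars for the SD of 5 arrays. For each of the 6, the 50 mg/kg points lie above all vehicle points, and for Gstt3 and Gstt1 also above all 0.1 and 15 mg/kg points. For Gstt1 the lowest 50 mg/kg point (7.7014) is barely above the highest at 15 mg/kg (7.6999).

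None of the members of the pi, omega, kappa and zeta classes passed at 50 mg/kg against vehicle. Gstk1, the kappa enzyme of mitochondria and peroxisomes, averaged 11.25, 11.16, 11.30 and 11.55 from vehicle to the high dose, a difference of 0.31 (adjusted p = 0.114). Gsto1, which reduces dehydroascorbate, differed by 0.10 (adjusted p = 0.704) and Gsto2 by 0.15 (adjusted p = 0.416). Gstz1, the maleylacetoacetate isomerase of tyrosine breakdown, averaged 12.26 with vehicle and 12.25 at 50 mg/kg. Gstp1, the placental form used as a marker of altered foci in rat liver, averaged 8.54 with vehicle and 8.64 at 50 mg/kg, a difference of 0.10 (interval -0.31 to 0.51, adjusted p = 0.884).

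Gstp3 varied more between arrays of 1 group than with dose. Its levels were 10.01, 11.55, 10.38, 9.42 and 11.66 with vehicle, 11.49, 10.39, 11.42, 11.23 and 11.29 at 0.1, 11.09, 10.43, 10.63, 10.90 and 10.86 at 15, and 10.55, 10.63, 10.17, 10.75 and 10.77 at 50 mg/kg. The SD of its vehicle arrays was 0.98, and 0.329% of the probe sets with a mean of at least 6 had a larger one. The difference at 50 mg/kg was -0.03 (interval -0.70 to 0.65, adjusted p = 0.986). Gstm2 had a pooled SD of 0.61, with 1.33% of such probe sets above it. Over the 18 members with a mean of at least 6 the median pooled SD was 0.174, against 0.159 for all 13980 probe sets of that brightness.

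**Figure D3:**
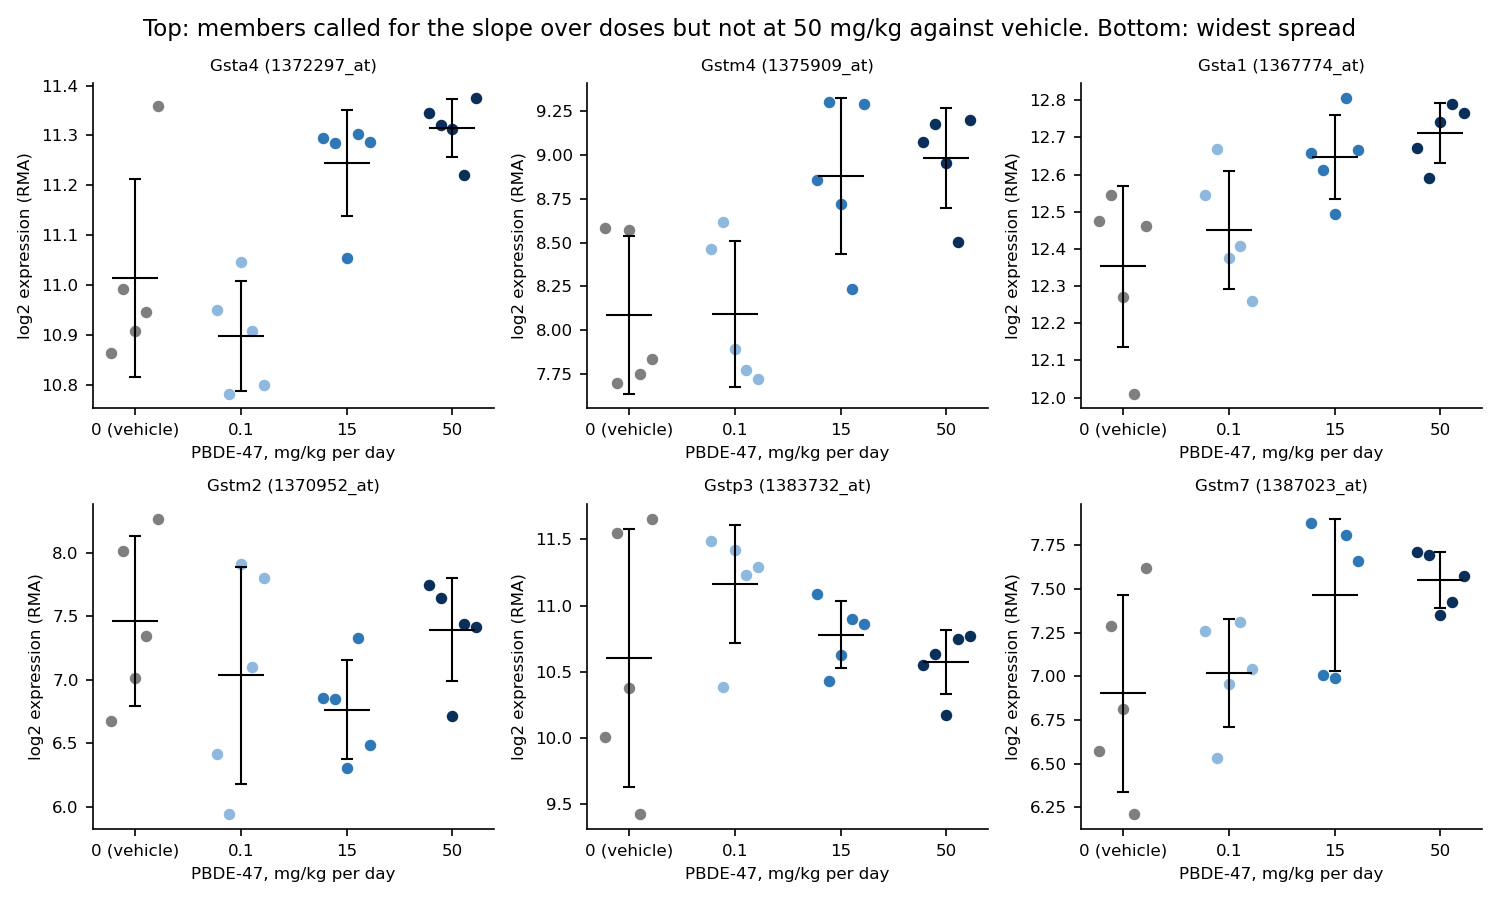
Log2 level (y axis) on each array by dose group (x axis, mg/kg per day), with the group mean and SD of 5 arrays; the upper row has Gsta1, Gsta4 and Gstm4, which passed for the slope but not at 50 mg/kg against vehicle, and the lower row has Gstm2, Gstp3 and Gstm7, the others with the widest spread. The vehicle points of Gstp3 run from 9.42 to 11.66, and those of Gstm4 split into a pair near 8.6 and 3 near 7.8.

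At 15 mg/kg 0 members were called by limma, where the percent called was 0.116% of all probe sets. At an unadjusted p under 0.05, 8 members were higher (33.3%, against 7.60% of all probe sets). The largest estimates were those of Gstm4 (0.79), Gstm7 (0.56) and Gsta3 (0.54). Gsta3 passed without vehicle replicate 2 (0.63, adjusted p = 0.0283) or 15 mg/kg replicate 3 (0.62, adjusted p = 0.0496), and its adjusted p ran from 0.0283 to 0.226 over the fits without 1 array. That middle-dose array carried muscle and pancreas transcripts and was the lowest of its group for Gsta3, Gsta1, Gsta4, Gstt2, Gstt3, Gstt1 and Mgst2. It was not the lowest for Gstm1 (10.93, lowest 10.76) or Gstm4 (8.72, lowest 8.23). Replicate 5, which also carried pancreas transcripts, read 11.67 for Gsta3 and 10.98 for Mgst2. The part of these transcripts was not tested. At 0.1 mg/kg limma called 0 members and 0% of all probe sets. Only Gsta3 had an unadjusted p under 0.05 there, a share of 4.17% of the members against 3.88% higher among all probe sets.

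Neither did any member pass between 50 and 15 mg/kg, where limma called 0 members and 0% of all probe sets. At an unadjusted p under 0.05, 6 members were higher (25%, against 2.66% of all). Against 0.1 mg/kg, a group that shares no array with vehicle but shares the 50 mg/kg arrays with the comparison above, 7 members were higher at 50 mg/kg (29.2%, against 0.583% of all). Gstt2 differed by 0.58 (adjusted p = 0.00126), Gstt3 by 0.66 (adjusted p = 0.0100), Gsta4 by 0.42 (adjusted p = 0.0191) and Gstk1 by 0.40 (adjusted p = 0.0407), and Gstt1, Mgst2 and Gstm1 also passed. Gsta3 differed by 0.45 (adjusted p = 0.110) and did not pass. All 50 mg/kg arrays lay above all 0.1 mg/kg arrays for 9 members, as they did for 1.83% of all probe sets. Over all probe sets 200 were called here in either direction, and 107 to 148 in the fits whose member counts are given next. The count of 7 was 4, 3, 4, 3 and 2 without low-dose replicates 1 to 5, and 4, 3 and 2 without high-dose replicates 1, 4 and 5. It was 3 with only those groups in the fit, 3 with the actin covariate and 2 with tissue covariates. Leaving out every array high in muscle or pancreas markers left 1 array at 0.1 mg/kg. In that fit calls fell for the members and over all probe sets.

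The slope over the dose order was called for 9 members, all upward (37.5%, against 0.960% of all probe sets). They were the 6 called at 50 mg/kg with Gsta1, Gsta4 and Gstm4. Gstt2 had a slope of 0.20 per step (adjusted p = 0.000299) and Gsta3 of 0.26 (adjusted p = 0.000639). In either direction 449 of all probe sets were called for the slope. Without 50 mg/kg replicate 5 that number was 284, and 5 members were called. Leaving out every array high in muscle or pancreas markers left 1 array at 0.1 mg/kg. In that fit calls fell for the members and over all probe sets. The slope shares its arrays with the contrasts above and is not separate support for them.

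RefSeq's table gives the 250 bases before the start for 19 of the 23 member genes, in 21 windows, and for Gsta3, Gstm1 and Gstt3 among the genes called at 50 mg/kg. Their windows are printed to show what the upstream sequences of 3 genes that rose at the same dose do and do not share, on the GRCr8 build, from 5′ to 3′ on the gene's strand. Capitals mark matches, on either strand, to 4 motifs: the antioxidant response element core TGACNNNGC, the dioxin response element core GCGTG, and the nuclear receptor hexamers AGGTCA and AGTTCA. The Gsta3 window is chr9:31154739-31154988 (+ strand), that of Gstm1 is chr2:198343384-198343633 (- strand) and that of Gstt3 is chr20:12874368-12874617 (+ strand).
Gsta3, first start: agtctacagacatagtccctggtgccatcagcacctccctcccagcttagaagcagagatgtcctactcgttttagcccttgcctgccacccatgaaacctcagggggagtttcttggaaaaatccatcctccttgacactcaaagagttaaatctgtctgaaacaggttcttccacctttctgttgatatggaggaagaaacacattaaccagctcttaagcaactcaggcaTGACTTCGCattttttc
Gstm1: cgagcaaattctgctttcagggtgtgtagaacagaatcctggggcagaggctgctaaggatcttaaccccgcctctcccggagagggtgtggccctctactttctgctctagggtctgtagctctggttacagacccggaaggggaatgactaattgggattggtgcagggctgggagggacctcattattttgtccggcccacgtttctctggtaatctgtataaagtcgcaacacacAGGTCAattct
Gstt3: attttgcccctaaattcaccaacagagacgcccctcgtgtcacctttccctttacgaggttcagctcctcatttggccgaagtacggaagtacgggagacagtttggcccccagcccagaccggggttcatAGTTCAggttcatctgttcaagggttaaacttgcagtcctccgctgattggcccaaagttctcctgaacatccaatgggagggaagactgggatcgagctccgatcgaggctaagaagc
Each window held 1 match, and each to a different motif. In Gsta3 it was TGACNNNGC, from 17 to 9 bases before the start, in Gstm1 AGGTCA, from 11 to 6 bases, and in Gstt3 AGTTCA, from 119 to 114 bases. The second Gsta3 start has a window with GCGTG and with AGTTCA on each strand.

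The core TGACNNNGC was found in 5 of the 21 member windows and in 10.1% of 33469 windows of this length. The matches are printed because the genes that hold them differ in whether they were called.
Gsta3: TGACTTCGC
Gstm5, 113 to 105 bases before the start: TGACCACGC
Gstm5, 53 to 45 bases before the start: TGACCCCGC
Gstm7: TGACACAGC
Gstp1: TGACTCAGC
Gstz1, on the opposite strand: GCCCCGTCA
Of these 5 genes Gsta3 was called at 50 mg/kg and Gstm5, Gstm7, Gstp1 and Gstz1 were not. The differences from vehicle there were 0.81 for Gsta3, 0.65 for Gstm7, 0.17 for Gstm5, 0.10 for Gstp1 and -0.01 for Gstz1. Whether these genes differ from each other in their change was not tested. GCGTG was in 7 member windows (25.9% of all windows) and overlaps the upstream core of Gstm5. AGTTCA was in 6 (12.2% of all) and AGGTCA in 1 (14.1% of all). A match is a description of the letters, not evidence of binding, and windows with no match say nothing of the factors.

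The genes around the transferases in glutathione metabolism were described from lists, 1 probe set per gene, with no test of a list. Over all probe sets 0.934% were called at 50 mg/kg against vehicle in either direction. An estimate above 0 was found for 53.0% of them, and their median was 0.01. For lists this short a count of 0 is near that share, and does not show that a list did not respond. Of 16 measured genes of glutathione synthesis and turnover, 0 passed by limma at any dose against vehicle, 12 had an estimate above 0 at 50 mg/kg, and the median was 0.13. The smallest p values there belonged to Ggt1, the gamma-glutamyl transferase that starts the breakdown of glutathione and its conjugates, at 0.54 (adjusted p = 0.198), and to Chac2, a glutathione-degrading cyclotransferase, at -0.29 (adjusted p = 0.238). Against 0.1 mg/kg, Ggt1 was higher at 50 mg/kg by 0.87, or 1.82-fold (adjusted p = 0.0304), with all 50 mg/kg arrays above all 0.1 mg/kg arrays. It was the 1 gene of this list to pass there. Ggt1 was dim, with a mean of 5.67 over all arrays, and at 0.1 mg/kg it lay 0.32 below vehicle without passing. Of 19 other enzymes that use glutathione, 0 passed at 50 mg/kg and 13 lay above 0, with a median of 0.07. Gpx2, a glutathione peroxidase that was also dim (mean 4.56), differed by 0.88 (adjusted p = 0.0725) and Glrx3, a glutaredoxin, by 0.27 (adjusted p = 0.0847). Esd, the S-formylglutathione hydrolase, was the 1 gene of this list called for the slope, at 0.10 per step (adjusted p = 0.0492), and differed by 0.29 at 50 mg/kg (adjusted p = 0.0945).

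Of 8 measured genes of conjugate export and mercapturate formation, 1 rose at 50 mg/kg. It was Abcc3, an export pump of the basolateral hepatocyte membrane that carries organic anion conjugates. Abcc3 averaged 8.36 with vehicle (SD 0.40, n = 5 arrays) against 9.86 at the high dose (SD 0.26, n = 5 arrays), a rise of 1.50 (SE 0.17, limma adjusted p = 7.3e-05), and it rose by 1.24 at 15 mg/kg (limma adjusted p = 0.00255). The median of this list at 50 mg/kg was 0.21. Of 9 measured regulators 0 passed at 50 mg/kg against vehicle, 6 lay above 0 and the median was 0.10. Ahr, the dioxin receptor, differed by 0.66 (adjusted p = 0.123) and Keap1, the repressor of NRF2, by 0.14 (adjusted p = 0.298). Ahr was called for the slope, at 0.28 per step (adjusted p = 0.0250), as 1 regulator of the 9.

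**Figure D4:**
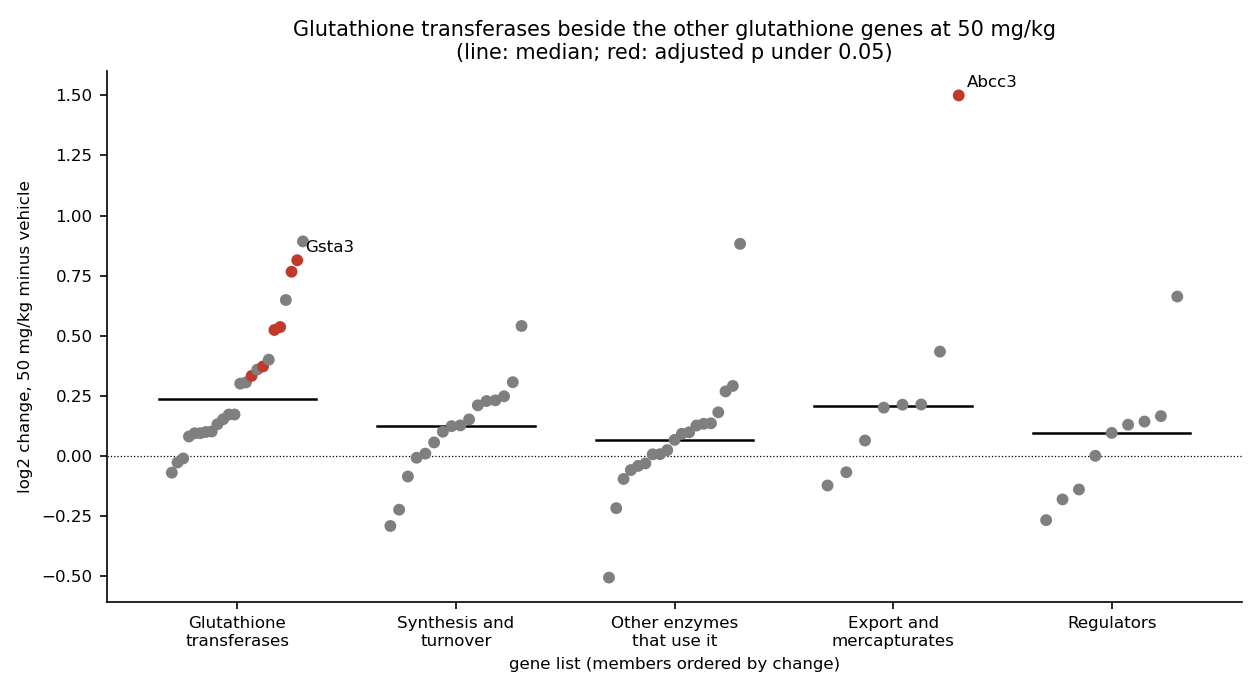
Differences from vehicle at 50 mg/kg on the log2 scale (y axis) for the members and for the measured genes of the 4 lists around them (x axis, 1 point per probe set, ordered by size, red where the adjusted p is under 0.05), with a line at each median. The members have a median of 0.24 and 6 red points, and the lists have medians of 0.07 to 0.21 with 1 red point, Abcc3 at 1.50.

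The probe sets most like Gsta3 over the 20 arrays are given as a description, since all arrays share the dose groups. Outside the family the highest Pearson r were those of Ccs (0.914), the copper chaperone of superoxide dismutase, Ddc (0.904), the aromatic amino acid decarboxylase, Akr1e2 (0.904), an aldo-keto reductase, Msrb2 (0.895), a methionine sulfoxide reductase, Thnsl2 (0.893), and Alas1 (0.884), the first enzyme of haem synthesis. For the deviations from the group means they were 0.770, 0.739, 0.771, 0.848, 0.749 and 0.676, which the choice of the highest r already favours. Within the family the closest were Gsta1 (0.878), Gstt2 (0.825), Mgst2 (0.815) and Gstm1 (0.801).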

How the data were processed

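Biotin-labelled RNA of 20 liver samples was read on Affymetrix rat arrays. The authors deposited log2 values made with RMA, per the submitters' processing notes; its version is not given in the sources used here. The method subtracts background, quantile-normalizes and summarizes each probe set. Values near the top and bottom of the scale may be compressed, which was not tested. Of 31099 probe sets, 57 controls were left out and 31042 tested with no filter. Related family members may share probe sequence, so a probe set may also read a paralog; this was not tested.

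A linear model with 1 mean per group (groups from the sample titles) was fitted to all 20 arrays with limma 3.58.1 in R 4.3.3 (lmFit, eBayes). P-values were two-sided, adjusted by Benjamini-Hochberg over all probe sets per contrast and called under 0.05. Intervals are 95% intervals, and 5 arrays per group limit the precision. The series names R/maanova, which was not used here. All member names matched by gene ID in RefSeq's GRCr8 table (24 of 24), used for names, gene order and upstream sequence.

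Every member is named. Values for each array are given for members called in a contrast with vehicle or for the slope. Each pathway list names its genes called against vehicle, otherwise the 2 of smallest p at the high dose, and the 6 probe sets most like Gsta3 were taken by Pearson r. Esd and the array values of Gstm2 and Gstp3 were added after their values were seen. Members and lists were chosen with earlier results of these data known. Alternatives were another normalization, filters, blocks, covariates, array weights and leaving out arrays, and the actin covariate was added after seeing the data. Scripts were tested on simulated data. Figures used matplotlib 3.10.9 in Python 3.11.15.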

Additional observations from a re-analysis of the deposited data

Results flagged for a closer look

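Within groups, 7 sets of 5 values held 1 array far from the other 4, by Dixon's criterion, out of 96 sets looked at (7.29%), where chance alone gives about 5%. At 15 mg/kg, replicate 3 was low for Gsta3 (11.3, the others 11.61 to 11.72) and for Gsta4 (11.05, the others 11.28 to 11.3). That array carried muscle and pancreas transcripts, and their part in these values was not tested. Gsta4 was high on vehicle replicate 5 (11.36, the others 10.86 to 10.99). Gstp1 was high on 50 mg/kg replicate 5 (9.39, the others 8.31 to 8.61), and Gsto1 on 50 mg/kg replicate 2 (11.54, the others 11.33 to 11.37). Gstp3 was low on 0.1 mg/kg replicate 2 (10.39, the others 11.23 to 11.49), and the dim Gstt2 probe set 1396468_at on 15 mg/kg replicate 5 (5.55, the others 5.91 to 5.93).

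A probe set that the annotation assigns to both Gsta5 and Gsta2 (1368180_s_at) lies outside the members, because it has no single symbol. It read 11.06, 11.30, 11.30, 11.31 and 12.27 with vehicle and 12.82, 12.46, 12.57, 12.62 and 12.69 at 50 mg/kg, so that the groups did not overlap. The rise of 1.18 was 2.27-fold (SE 0.18, interval 0.81 to 1.56, limma adjusted p = 0.00194), and the difference at 15 mg/kg was 0.85 (limma adjusted p = 0.0749). Which of the genes it reads was not tested.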

How the results depend on the processing

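Leaving out 1 array at a time gave 2 to 7 members called at 50 mg/kg against vehicle (6 with all arrays), 0 to 1 at 15 mg/kg, 2 to 7 for 50 against 0.1 mg/kg (7 with all) and 5 to 10 for the slope (9 with all). The counts at 0.1 mg/kg and for 50 against 15 mg/kg were 0 in every fit run. Leaving out the arrays with muscle or pancreas transcripts left 1 array at 0.1 mg/kg and 2 at 50 mg/kg. Calls fell for the members and over all probe sets in that fit. Its estimates at 50 mg/kg ran from 0.34 for Mgst2 to 0.85 for Gsta3 among the 6 members called with all arrays. With only the groups compared, 2 members were called at 50 mg/kg and 3 for 50 against 0.1 mg/kg (89 and 142 of all probe sets). The slope uses all groups. The actin covariate, added after seeing the data, gave 3 and 3 for that pair (193 and 119 of all). With tissue covariates 2 were called for 50 against 0.1 mg/kg (131 of all). Replicate numbers did not pair the samples: deviations of same-numbered arrays correlated between -0.36 and 0.29 over 30 pairs, and 4 of 20 arrays correlated best with their own number. With the replicate number as a block 6, 6 and 8 members were called at 50 mg/kg, against 0.1 mg/kg and for the slope, and with a block for the leading digit of the description number 5 at 50 mg/kg. Under both blocks Gstm4 passed at 50 mg/kg and Gstt3 did not, and under the digit block Gstt1 did not either (adjusted p = 0.0709). Estimates near 0 changed sign. For Gstm4 at 0.1 mg/kg they were -0.040 with the digit block, -0.0094 with equal medians and -0.29 without the tissue arrays. For Gstt3 at 15 mg/kg they were 0.030 after another quantile normalization, 0.13 without the tissue arrays and 0.094 with tissue covariates. For Mgst2 at 0.1 mg/kg they were 0.026 after quantile normalization, 0.00058 with array weights, 0.014 with tissue covariates and 0.0018 with the actin covariate. Without the tissue arrays, Gsta4, Gstm1 and Gstt3 at 0.1 mg/kg gave 0.028, -0.033 and 0.045. Leaving out 1 array gave -0.10 to 0.069 for Gstt3 at 15 mg/kg and, at 0.1 mg/kg, -0.029 to 0.16 for Gstm1, -0.13 to 0.13 for Gstm4, -0.12 to 0.00065 for Gstt2 and -0.026 to 0.043 for Mgst2. None of these passed, and the cause was not tested. Signal near background limits Gsta3l1, Gstm3, Gstm5, Gstm6l, Gsto2 and 1396468_at.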
